A study of Mus musculus with 4 samples.

Results

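The respiratory chain and ATP synthase were represented on these arrays by 41 genes, out of 6025 genes with at least 1 probe that the platform annotation assigns to a single gene. Members were taken by symbol alone, and no measured value was used: symbols starting with Nduf, with Sdh and then a, b, c or d, with Uqcr, with Cox and a digit, or with Atp5. Together they had 43 probes, since Cox7c and Cox20 had 2 each, and probes of a gene were averaged. By role, 13 genes encode subunits of complex I, 2 of complex II, 1 of complex III, 11 of complex IV and 8 of the ATP synthase (complex V). The remaining 6 (Cox10, Cox19, Cox20, Ndufaf3, Ndufaf7 and Sdhaf4) help to assemble the complexes without being part of them. Another 3 probes that name such a gene were listed with several genes and were left out. Subunits encoded by mitochondrial DNA carry other symbols and are not members.

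The samples were mouse embryonic stem (ES) cells grown without feeder cells. Per the series title, they were deprived of serum for 72 h and then given serum for 4 h. Each of 4 cDNA arrays compared 1 mutant line with wild-type cells in different dyes. The mutants were fosBd/d cells, homozygous for an allele that yields ΔFosB (a short form of the AP-1 subunit FosB) and no full-length FosB, and fosB-null cells. The dyes were exchanged between the 2 arrays of a mutant, replicate 1 with the mutant in Cy3 and replicate 2 with the mutant in Cy5. The sources used here do not say whether a mutant line is 1 clone, or whether the arrays of a swap came from separate cultures, so the spread between them may be technical. Wild-type cells were thus set against cells limited to ΔFosB, and against cells lacking FosB.

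In the respiratory chain, complexes I and II pass electrons from NADH and succinate to ubiquinone, complex III passes them to cytochrome c and complex IV to oxygen. Complexes I, III and IV pump protons across the inner mitochondrial membrane, and the ATP synthase uses the returning protons to make ATP. Most subunits are encoded in the nucleus and imported, and their promoters are known targets of the factors NRF1, GABP and YY1. Pluripotent stem cells rely heavily on glycolysis, and respiratory capacity is known to rise as they differentiate.

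Values are log2 ratios of the channels of an array, so they give a difference between mutant and wild type and no level of a gene. For the same reason the labelled cell type could not be checked by marker levels. Means are given ± SD (n = 2 arrays). Negative fosBd/d values are likely lower in the mutant, and the direction of fosB-null values is not settled by the labels, so these are given by sign only. Over all 9480 probes, r was -0.463 between the first replicates of the mutants and -0.369 between the second, 0.336 and 0.326 between unlike replicates, -0.318 within fosB-null and -0.125 within fosBd/d. Over the 6566 single-gene probes used here, the within-mutant values were -0.155 and 0.039. Exact zeros carried a minus sign on fosBd/d replicate 1 and fosB-null replicate 2, as after a change of sign. With the labelled dyes read as Cy5 over Cy3, the marks put fosBd/d as mutant over wild type and fosB-null as wild type over mutant. The dye term of the fit follows the marks. Sample titles call Cy3 red and Cy5 green, however, and with ratios read as Cy3 over Cy5 both directions turn round. The direction given for fosBd/d rests on this choice. If both mutants were instead deposited in 1 direction, the dye term would be coded by the labelled dyes, which leaves each mean as it is and changes the p-values. Coded by the marks, the dye term had an unadjusted p under 0.05 in limma for 1431 of the 6025 genes. Coded by the labelled dyes, it had one for 40. The labels do not say which reading holds, so differences between the mutants are given in both. All genes were tested in 1 limma fit with a dye term, adjusted by Benjamini-Hochberg over the 6025 genes. At an adjusted p under 0.05, 0 members were called in either mutant, beside 0% of all genes. The smallest adjusted p of a member was 0.214 in fosBd/d and 0.618 in fosB-null, so no member is said to have changed. Each array held 9480 values with a median of 0.00, and 1 residual degree of freedom was left in the fit.

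In fosBd/d cells the respiratory chain genes lay mostly on the negative side, by small amounts. Their median was -0.18, with quartiles of -0.32 and -0.04, beside a median of -0.02 and quartiles of -0.25 and 0.22 over all genes. Of the 41, 20 were negative on both arrays, which is 48.8% beside 24.2% of all genes. On the other side, 5 were positive on both arrays, or 12.2% beside 25% of all genes. The member median was -0.16 on replicate 1 and -0.22 on replicate 2, so the shift was seen in both dye orientations. Of 12 extraembryonic endoderm markers, 10 were positive and 0 negative on the same 2 arrays, with list medians of 1.81 and 1.57, and 0 of the 12 were listed at exactly 0. Their part in the respiratory chain values was not tested, and in bulk RNA fewer cells of a type and less RNA per cell cannot be told apart. By mean, 1 member passed 2-fold, and 0 passed it on both arrays with 1 sign (1.53% of all genes did so with positive values and 0.266% with negative values). At an unadjusted p under 0.05 in limma, 7 members were negative (17.1%, beside 7.19% of all genes) and 0 were positive (beside 12.3%). That count of 7 fell to 3 without the dye term, and to 1 with the dye term coded by the labelled dyes. It was 2 and 1 without fosBd/d replicates 1 and 2, and 2 without either fosB-null array, in fits that also had no dye term.

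**Figure D1:**
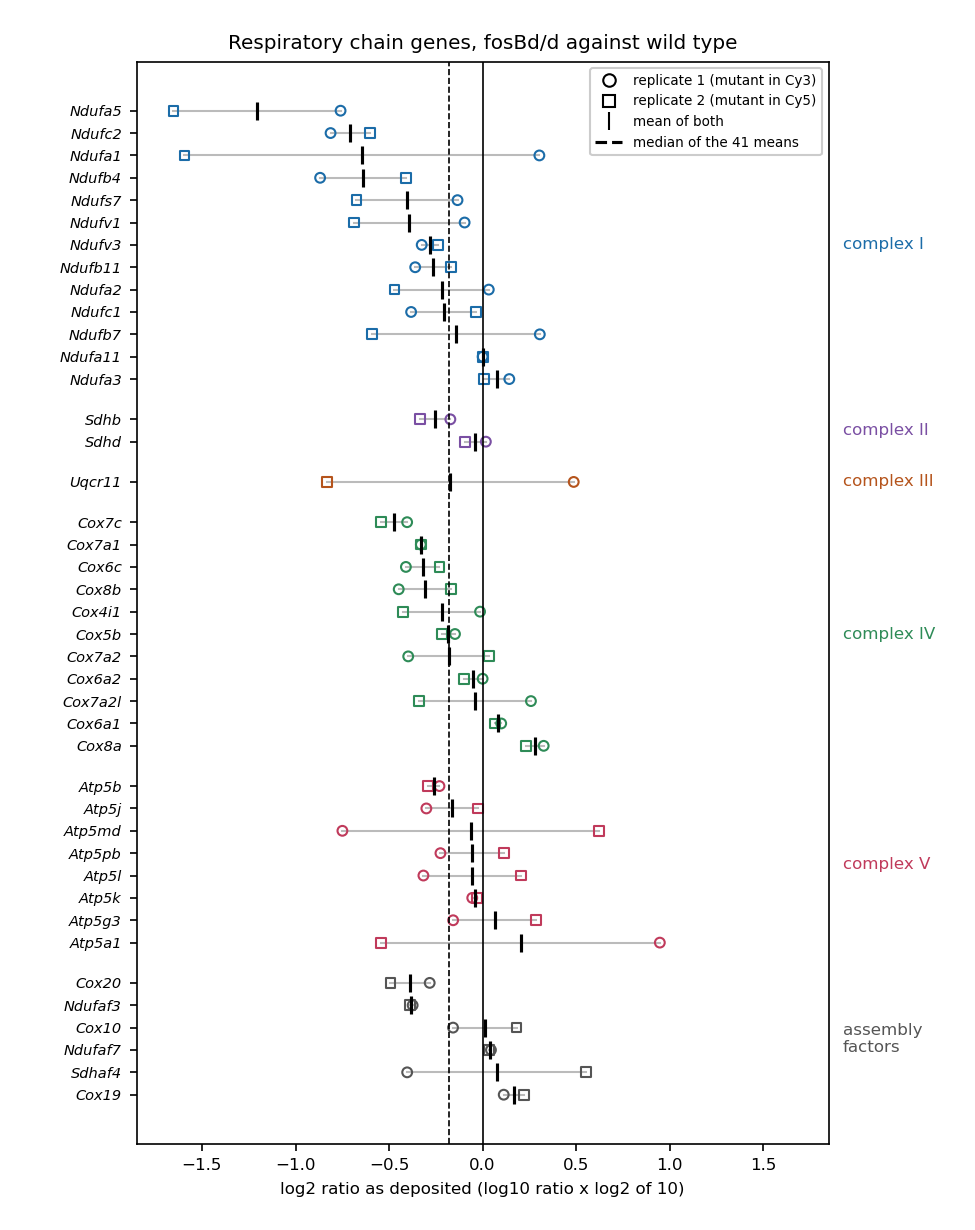
Log2 ratios of the 41 members in fosBd/d against wild type, grouped by complex. Circles are replicate 1, squares replicate 2, black ticks their mean and the dashed line the median of the means, -0.18; 20 genes have both symbols left of 0 and 5 have both right of it.

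Complex I held the most negative members. Its 13 genes had a median of -0.28 (-0.13 on replicate 1 and -0.47 on replicate 2). Of them, 8 were negative on both arrays against 1 that was positive on both. Ndufa5, an accessory subunit of the arm that reaches into the matrix, read -0.76 on replicate 1 and -1.65 on replicate 2. Its mean of -1.21 ± 0.63 is 2.31-fold, the lowest of all members and rank 96 from the bottom of the 6025 genes (limma adjusted p = 0.225). Both arrays put it well below 0, but they differed from each other by more than the whole shift of most other members.

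Ndufc2 and Ndufb4, accessory subunits of the membrane arm, followed. Ndufc2 read -0.81 and -0.60, a mean of -0.71 ± 0.15 or 1.63-fold (adjusted p = 0.214). Ndufb4 read -0.87 and -0.41, a mean of -0.64 ± 0.33 or 1.56-fold (adjusted p = 0.214). In both genes the arrays lay on the same side of 0 and the mean was larger than the SD. Ndufa1, an X-linked membrane-arm subunit, had a mean of nearly the same size, -0.65 ± 1.34, but its arrays stood at 0.30 and -1.59, so replicate 2 alone decides it.

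The core subunits, which carry the electrons, also had negative means. Ndufs7, which holds an iron-sulfur cluster close to the ubiquinone site, read -0.13 and -0.67 (mean -0.40 ± 0.38). Ndufv1, which binds NADH and flavin, read -0.10 and -0.69 (mean -0.39 ± 0.42). In each the spread between arrays was about as large as the mean, with replicate 2 the lower. Ndufv3, which sits on the same NADH-oxidising module, was steadier at -0.33 and -0.24, and Ndufb11 in the membrane arm stood at -0.36 and -0.17.

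The other complex I members were nearer 0. Ndufc1 read -0.38 and -0.03, while Ndufa2 (0.03 and -0.47) and Ndufb7 (0.31 and -0.59) differed in sign between arrays. Ndufa3 was the highest of the complex at 0.08 ± 0.10. Ndufa11 was listed at exactly 0 on both arrays and so carries no information here.

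Complexes II and III were thinly covered. The iron-sulfur subunit Sdhb of succinate dehydrogenase read -0.17 and -0.34 (mean -0.25 ± 0.12), and the membrane anchor Sdhd read 0.02 and -0.09. Uqcr11, a small subunit of complex III, had 0.49 on replicate 1 and -0.83 on replicate 2. Its mean of -0.17 ± 0.93 says nothing about direction.

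Cytochrome c oxidase (complex IV) had a median of -0.18 over 11 genes, with 6 negative and 2 positive on both arrays. Cox7c, a small transmembrane subunit, was the lowest, with -0.40 and -0.54 (mean -0.47 ± 0.10, 1.39-fold, limma adjusted p = 0.218). Its separate probes stood at -0.56 ± 0.36 and -0.38 ± 0.16, so both gave the same sign on both arrays. Cox6c, another small membrane subunit, read -0.41 and -0.23, and the matrix-side subunit Cox5b read -0.15 and -0.22. Cox4i1, the common form of subunit 4, read -0.01 and -0.43.

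Cox8a was the exception and the highest of all members. It read 0.33 and 0.23, a mean of 0.28 ± 0.07 or 1.21-fold (adjusted p = 0.301). Both arrays were positive, on the side opposite to most of the complex.

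Some complex IV subunits exist as a form found in most tissues and a form of heart and skeletal muscle, and 3 such sets were measured. Of the muscle forms, Cox8b read -0.45 and -0.17, Cox7a1 -0.33 and -0.33, and Cox6a2 0 and -0.10. Their common counterparts had means of 0.28 ± 0.07 for Cox8a, -0.18 ± 0.31 for Cox7a2 and 0.08 ± 0.02 for Cox6a1. In subunit 8 the common form was above the muscle form on each array. In subunit 6a it was above on replicate 2, and on replicate 1 Cox6a2 was an exact 0, which gives no order. In subunit 7a the order differed between arrays, because Cox7a2 stood at -0.40 and 0.04. The related Cox7a2l, which joins complexes III and IV into larger assemblies, differed in sign, at 0.26 and -0.34. These differences between forms were not tested. Of 10 striated muscle markers, 4 were positive and 1 was negative on both fosBd/d arrays (median 0.23), and their part in the isoform values was not tested.

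Among the complexes, the ATP synthase stood closest to 0 by gene means, with a median of -0.05 over 8 genes. On both arrays 3 were negative and 0 positive. Its median was -0.23 on replicate 1 and 0.05 on replicate 2, beside -0.13 and -0.47 for complex I. Its place nearest 0 thus averages arrays of opposite sign, and was not seen on replicate 1. Atp5b, the catalytic beta subunit, was the lowest, with -0.23 and -0.29 (mean -0.26 ± 0.04). Atp5j, part of the peripheral stalk, read -0.30 and -0.02, and Atp5k in the membrane part read -0.06 and -0.03. The other 5 differed in sign between arrays. Among them, the alpha subunit Atp5a1 had the highest mean (0.20 ± 1.05) from readings of 0.95 and -0.54, and Atp5md, a small membrane subunit, read -0.75 and 0.62. Means of Atp5g3 (a gene for the rotating c ring), Atp5pb (peripheral stalk) and Atp5l (membrane part) lay between -0.06 and 0.06.

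Assembly factors were mixed, with 2 negative and 2 positive on both arrays. Ndufaf3, which acts early in complex I assembly, read -0.37 and -0.39 (mean -0.38 ± 0.01, limma adjusted p = 0.246). Cox20, which helps to mature a catalytic subunit of complex IV, averaged -0.39 ± 0.15, but its probes disagreed, at -0.72 ± 0.22 and -0.06 ± 0.52. Cox19, needed for copper delivery to complex IV, was positive at 0.11 and 0.22. Ndufaf7 (0.04 and 0.03), Cox10 (-0.16 and 0.18), which makes a precursor of heme A, and Sdhaf4 (-0.40 and 0.55), a complex II assembly factor, had means within 0.08 of 0.

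In fosB-null cells the same genes lay slightly on the positive side as deposited. The member median was 0.11, with quartiles of -0.09 and 0.20, beside 0.00 with quartiles of -0.14 and 0.15 over all genes. Of the 41, 12 were positive on both arrays (29.3%, beside 19.5% of all genes) and 5 were negative on both (12.2%, beside 21.9%). The median was -0.02 on replicate 1 and 0.11 on replicate 2, so the shift rests on replicate 2, and it was -0.02 without that array. Signs differed between arrays for 23 members. With exact zeros counted too, 24 of 41 members had no shared sign, beside 3531 of 6025 genes. At an unadjusted p under 0.05 in limma, 3 members were positive (7.32%, beside 3.20% of all genes) and 0 were negative (beside 3.62%). That count was 0 without the dye term, 0 with it coded by the labelled dyes and 0 without any 1 of the 4 arrays. No member passed 2-fold with 1 sign on both arrays (0 of 41), beside 0.166% of all genes on the positive side and 0.083% on the negative.

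**Figure D2:**
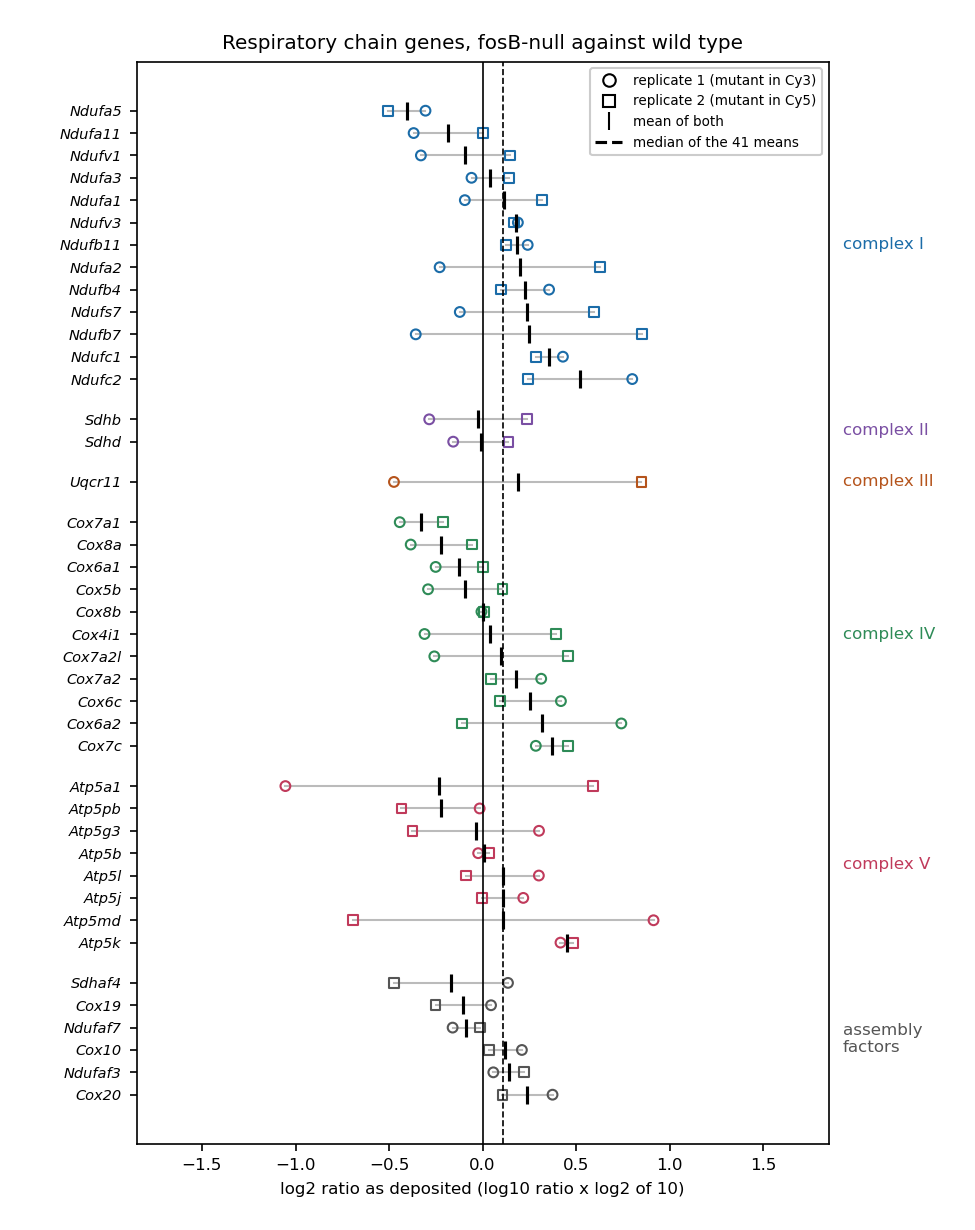
Log2 ratios of the 41 members in fosB-null against wild type, as deposited, in the layout of the fosBd/d plot. Circles are replicate 1, squares replicate 2, ticks the mean and the dashed line the median of the means, 0.11; for 23 genes the symbols fall on opposite sides of 0.

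The highest members were Ndufc2, Atp5k and Cox7c. Ndufc2 read 0.80 and 0.24 (mean 0.52 ± 0.39, 1.44-fold). Atp5k, the e subunit of the ATP synthase membrane part, read 0.42 and 0.48 (mean 0.45 ± 0.05, 1.36-fold), the closest match between arrays among the 3. Cox7c read 0.28 and 0.46 (mean 0.37 ± 0.12, 1.29-fold), with probes at 0.49 ± 0.42 and 0.24 ± 0.17. The limma adjusted p was 0.618 for each of these 3 genes.

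Other complex I genes with both arrays positive were Ndufc1 (0.43 and 0.28), Ndufb4 (0.36 and 0.10), Ndufb11 (0.24 and 0.12) and Ndufv3 (0.19 and 0.17). Complex I had a median of 0.18, with 5 genes positive and 1 negative on both arrays. That 1 was Ndufa5, the lowest member, at -0.31 and -0.51 (mean -0.41 ± 0.14). The core subunits Ndufs7 (-0.12 and 0.60) and Ndufv1 (-0.33 and 0.14) and the accessory Ndufb7 (-0.36 and 0.85), Ndufa2 (-0.23 and 0.63), Ndufa1 (-0.10 and 0.32) and Ndufa3 (-0.06 and 0.14) were each lower on replicate 1. Ndufa11 read -0.37 and an exact 0.

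In complex IV the median was 0.04, with 3 genes positive and 2 negative on both arrays. The muscle form Cox7a1 was the lowest at -0.44 and -0.21 (mean -0.33 ± 0.16), and its common counterpart Cox7a2 read 0.31 and 0.05. Cox8a read -0.38 and -0.06 and Cox8b stayed at -0.01 and 0.01. Cox6a1 had -0.25 and 0.00, and Cox6a2 had 0.74 and -0.11. As deposited, the common form was above the muscle form on each array in subunit 7a, and in the other sets the muscle form was higher on at least 1 array. Each of these orders is the other way round with the fosB-null sign turned. Cox6c read 0.42 and 0.09, whereas Cox4i1 (-0.31 and 0.39), Cox5b (-0.29 and 0.11) and Cox7a2l (-0.26 and 0.46) differed in sign.

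The remaining complexes gave little direction. Means of Sdhb (-0.02 ± 0.37) and Sdhd (-0.01 ± 0.21) were at 0, and Uqcr11 read -0.47 and 0.85. In the ATP synthase, Atp5b read -0.02 and 0.03, Atp5pb was negative at -0.02 and -0.43, and Atp5a1 was the lowest at -0.23 ± 1.16. Means of Atp5j, Atp5l and Atp5md were 0.11 each, the last from 0.91 and -0.69, and Atp5g3 stood at -0.04 ± 0.48. Of the assembly factors, Cox20 (0.37 and 0.11), Ndufaf3 (0.06 and 0.22) and Cox10 (0.21 and 0.03) were positive on both arrays and Ndufaf7 (-0.16 and -0.01) was negative on both. Cox19 (0.04 and -0.25) and Sdhaf4 (0.14 and -0.48) differed in sign.

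Arrays of a swap differed most in a few members. For the dye term, coded by the sign marks, 5 members had an estimate of at least 0.5 log2 units in size, beside 0 that passed in limma after adjustment. They were Atp5a1 (-0.78), Atp5md (0.74), Uqcr11 (-0.66), Ndufa1 (-0.58) and Ndufb7 (-0.53). In these genes the spread of a mutant's arrays was wider than its mean in both mutants, so neither mutant's value is resolved from 0. The SD was larger than the mean in size for 20 of the 41 members in fosBd/d and for 29 in fosB-null. Shares over all genes were not computed for these counts or for the cutoff of 0.5. In limma the dye term had an unadjusted p under 0.05 for 10 of 41 members and 1431 of 6025 genes, a like share.

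**Figure D3:**
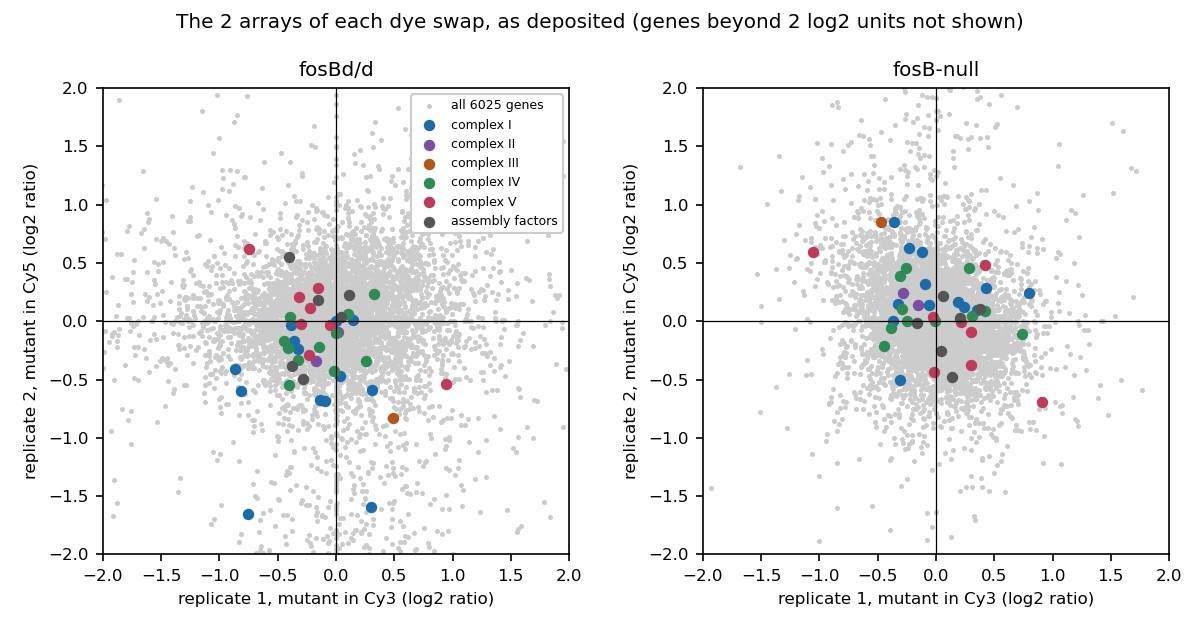
Replicate 1 (x) against replicate 2 (y) of each mutant, log2 ratios as deposited, with the 41 members in colour by complex over all 6025 genes in grey. In fosBd/d 20 members fall at lower left and 5 at upper right; in fosB-null 5 fall at lower left and 12 at upper right, and the members at upper left and lower right are those whose sign differed between arrays.

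Set side by side, both comparisons share wild-type cells as the other channel. Ndufc2 had -0.71 in fosBd/d and 0.52 in fosB-null, a difference of -1.23 ± 0.17 (SE of the limma fit, adjusted p = 0.275). Ndufb4 differed by -0.87 ± 0.15 and Cox7c by -0.84 ± 0.13 (adjusted p = 0.275 for each). Cox8a differed the other way, by 0.50 ± 0.15 (adjusted p = 0.300). As deposited, the median difference over the members was -0.27, beside -0.02 over all genes. This sets mutant against mutant only if both were deposited in 1 direction, where the dye term is coded by the labelled dyes. In that fit 0 members had an unadjusted p under 0.05 in limma, beside 165 of 6025 genes. With the dye term coded by the sign marks, 8 members had a negative difference at an unadjusted p under 0.05 (19.5%, beside 6.36% of all genes). At that threshold 0 had a positive one (beside 10.3%). After adjustment 0 passed, and 0% of all genes did. This count was 3 when the dye term was dropped, 0 when it was coded by the labelled dyes, 2 without either fosBd/d replicate, and 0 and 1 without fosB-null replicates 1 and 2.

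These differences depend on how the fosB-null ratios are read. By the sign marks, the mutants were deposited in opposite directions, so the turned reading is the one that sets mutant against mutant. In that reading, a member negative in fosBd/d and positive in fosB-null as deposited lay on the same side of wild type in both mutants. Turning the fosB-null sign gave a median difference of -0.07. Then 3 members had an unadjusted p under 0.05 and a negative difference (7.32%, beside 3.47% of all genes), and 0 a positive one (beside 7.67%). They were Ndufa5 (-1.61), Cox7a1 (-0.66) and Ndufv1 (-0.48). Ndufc2 then stood at -0.19, Ndufb4 at -0.41 and Cox7c at -0.10. Ndufa5 and Cox7a1, negative on all 4 arrays as deposited, were the 2 members with fosBd/d below fosB-null on opposite sides of 0 (4.88%, beside 4.53% of all genes), and 0 were above (beside 4.58%). Without turning, 10 members were below in that way (24.4%, beside 6.8% of all genes) and 2 above (4.88%, beside 7.9%). The smallest adjusted p of a member with the sign turned was 0.431.

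Related gene lists were described in the same way, by count and median. Mitochondrial ribosomal proteins build the machinery that translates the mRNAs made from mitochondrial DNA. They had a median of -0.22 over 28 genes in fosBd/d, with 12 negative and 2 positive on both arrays. Mrpl19 was the lowest at -0.81 and -0.70, and Mrps18a the highest. At an unadjusted p under 0.05, 4 of the 28 were negative (beside 7.19% of all genes) and 0 positive (beside 12.3%). In fosB-null their median was 0.04, with 6 positive and 2 negative on both arrays. Cytosolic ribosomal proteins had medians of -0.10 and 0.06 over 28 genes, or -0.08 and 0.07 without 3 kinases (Rps6ka3, Rps6ka5 and Rps6ka6) that the symbol rule also takes. Of these 28, 8 were negative and 4 positive on both fosBd/d arrays.

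Enzymes upstream of the chain had a fosBd/d median on the other side of 0, over few genes. Pyruvate dehydrogenase and citric acid cycle genes, which supply NADH and succinate, had a median of 0.11 over 10 genes in fosBd/d. On both arrays 3 were positive (30%, beside 25% of all genes) and 0 negative (beside 24.2%). In fosB-null the median was -0.11, with 4 negative on both arrays (40%, beside 21.9% of all genes) and 0 positive (beside 19.5%). Dld, a subunit shared by pyruvate dehydrogenase and related complexes, was the highest in fosBd/d (0.41 ± 0.53), and Dlat, another subunit, the lowest (-0.37 ± 0.82). Electron carriers and assembly genes outside the symbol rule, 6 in number, had medians of -0.04 and 0.01. Among them Gpd2, the mitochondrial glycerol phosphate dehydrogenase, read 0.47 and 0.48 in fosBd/d, and cytochrome c itself (Cycs) read -0.07 and 0.03. Glycolysis and lactate genes had a median of 0.26 over 9 genes in fosBd/d, with 4 positive (beside 12.3% of all genes) and 1 negative (beside 7.19%) at an unadjusted p under 0.05. The lactate carrier Slc16a1 (0.56 and 0.93) was the highest and the lactate dehydrogenase Ldhb (-0.52 and -1.14) the lowest. The arrays differed, with list medians of -0.06 and 0.24 on fosBd/d replicates 1 and 2. The median in fosB-null was 0.11. No gene of these lists passed after adjustment.

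**Figure D4:**
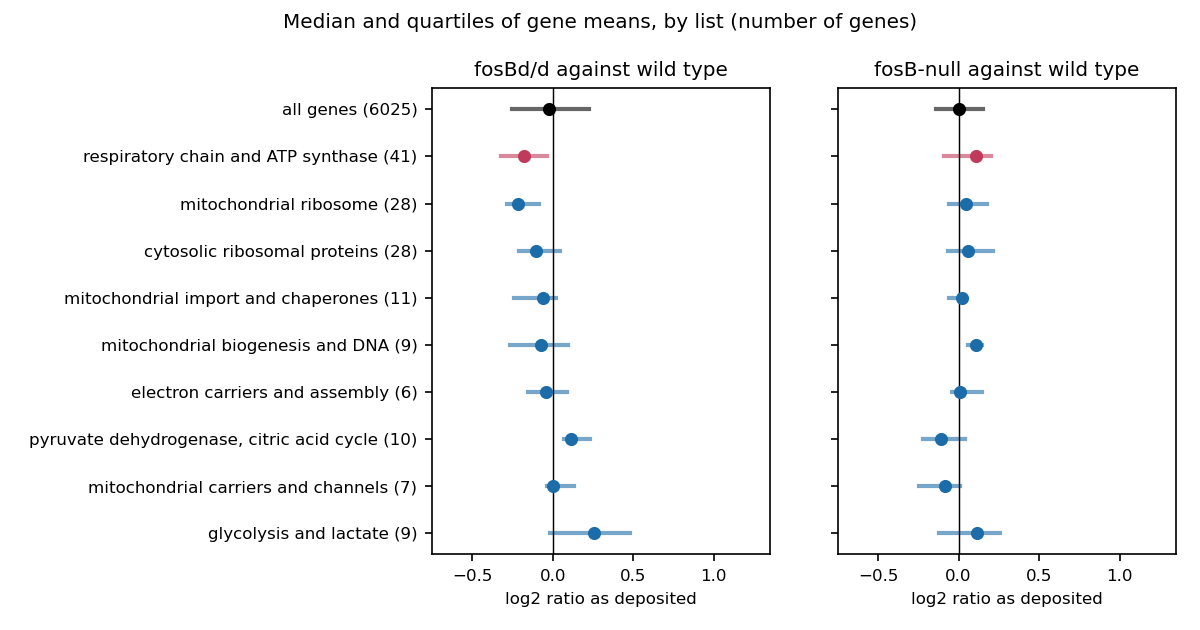
Median (point) and quartiles (bar) of gene means for the respiratory chain and ATP synthase, related lists and all genes, as log2 ratios in each mutant; the number of genes is in brackets. In fosBd/d the respiratory chain (-0.18) and the mitochondrial ribosome (-0.22) have the lowest medians of those plotted and glycolysis (0.26) the highest, and in fosB-null all medians lie between -0.11 and 0.11.

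In fosB-null the median of the endoderm markers was -0.17, with 2 positive and 6 negative. Of 7 pluripotent markers, 3 were negative and 2 positive on both fosBd/d arrays (median -0.24), and 5 were negative and 1 positive in fosB-null (median -0.37). Feeder fibroblast markers had medians of 0.12 and -0.25 over 7 genes.

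Promoters were compared because FosB acts through AP-1 sites and because 31 of the 41 members had a negative mean in fosBd/d. Of the 41, 20 were negative on both arrays, and no member is said to have changed. RefSeq start sites on GRCm38.p6 matched 36 of the 41 members (Atp5a1, Cox4i1, Cox6a2, Cox6c and Ndufa2 had no entry), and Atp5j and Ndufa5 had 2 start sites. Each window of 300 bases, 250 before the start and 50 after it, was searched on both strands. The motifs were the NRF1 core CGCATGCG, the ETS core CCGGAAG that GABP binds, the YY1 core ATGGCGG and the AP-1 site TGANTCA. Shown here are the 200 bases before the start of 4 genes picked by hand. Ndufb4 and Cox7c were low in fosBd/d, at ranks 4 and 5 from the bottom of the members. The lower Ndufa5, Ndufc2 and Ndufa1 are not shown. Atp5k had a mean of 0.45 in fosB-null as deposited (the opposite sign if turned), and Cox8a was the highest member in fosBd/d. The stretches are written 5′ to 3′ on the strand of the gene, with full motif matches in capitals.
Ndufb4 (chr16:37654369-37654568, minus strand): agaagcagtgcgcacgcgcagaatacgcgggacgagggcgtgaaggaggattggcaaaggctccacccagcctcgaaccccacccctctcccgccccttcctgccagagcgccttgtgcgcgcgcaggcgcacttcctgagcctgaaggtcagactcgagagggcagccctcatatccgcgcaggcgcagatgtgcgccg
Cox7c (chr13:86046796-86046995, minus strand): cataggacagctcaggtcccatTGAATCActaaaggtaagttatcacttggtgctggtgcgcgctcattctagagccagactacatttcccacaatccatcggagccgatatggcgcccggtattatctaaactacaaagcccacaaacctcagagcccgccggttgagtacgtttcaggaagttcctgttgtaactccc
Atp5k (chr5:108434400-108434599, minus strand): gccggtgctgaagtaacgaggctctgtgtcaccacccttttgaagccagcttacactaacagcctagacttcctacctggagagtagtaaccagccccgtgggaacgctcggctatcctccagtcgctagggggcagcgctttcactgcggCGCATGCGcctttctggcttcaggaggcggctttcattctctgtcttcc
Cox8a (chr19:7217617-7217816, minus strand): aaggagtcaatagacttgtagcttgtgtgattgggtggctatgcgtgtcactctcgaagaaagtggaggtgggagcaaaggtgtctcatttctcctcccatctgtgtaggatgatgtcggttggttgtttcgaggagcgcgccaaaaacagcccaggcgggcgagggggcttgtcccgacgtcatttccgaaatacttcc

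In these stretches, Cox7c held an AP-1 match, Atp5k an NRF1 match, and Ndufb4 and Cox8a none of the 4. Cox8a also had an ETS match that runs across the end of the stretch, and Cox8a and Atp5k each had 1 beyond the start. Over the members, the AP-1 letters were found in 2 of 36 (Cox7c and Ndufa5), or 5.56%, beside 7.08% of the 4772 array genes and 8.97% of the 27025 genes with a window. The NRF1 core was in 6 of 36 (Atp5j, Atp5k, Atp5l, Cox6a1, Ndufa11 and Uqcr11), or 16.7%, beside 3.79% of array genes and 2.07% of all. The ETS core was in 12 (33.3%, beside 17.0% and 9.93%) and the YY1 core in 8 (22.2%, beside 8.19% and 4.69%). In fosBd/d the 6 genes with an NRF1 match had a median of -0.05 and lay between -0.17 and 0.08. The 30 without had a median of -0.23. Among the 6 are Ndufa11, at exactly 0 on both arrays, and Uqcr11, whose arrays differed in sign. Atp5j, Atp5k and Atp5l are ATP synthase genes, so motif and complex overlap, and neither was tested. With an ETS match the median was -0.06, and without one -0.26. The YY1 genes ran the other way, with -0.32 beside -0.16. The 2 genes with the AP-1 letters, Ndufa5 (-1.21) and Cox7c (-0.47), had a midpoint of -0.84, beside -0.17 for the 34 without. In fosB-null, as deposited, these medians were -0.02 and 0.10. Ndufa5, the lowest member, also had a YY1 match and so counts in both groups. No relation of a motif to the values was tested. The windows are matches of letters and show no binding.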

How the data were processed

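RNA of 2 mutant ES lines was measured against wild type on 4 arrays with 2 colours each. The deposited values are read on a log10 scale, the one used for ratios by Agilent Feature Extraction, which the submitters' processing notes name. The sources used here give no version, background correction, dye normalization or filter, so every fold change rests on that log base. Values were multiplied by 3.32 (the log2 of 10). Exact zeros carry a minus sign on fosBd/d replicate 1 and fosB-null replicate 2, the mark of a sign change, and the dye term was coded from it. Genes came from a platform annotation of 9480 probes, with 6566 single-gene probes (392 had several genes, 2522 none listed). Updating symbols by gene identifier (6496 matched) left the 41 members as they were. limma 3.58.1 in R 4.3.3 was fitted to gene averages (1 term for each mutant, 1 for the dye; two-sided) on all 4 arrays, and was tested on simulated data. Intensities were not analysed here, and the number of arrays limits the precision. The labels give no replicate numbers, so replicates are numbered in accession order.

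Members and lists were chosen with earlier results of these data known. Genes were named by rule: the 3 highest and lowest members of each comparison, the extremes of each complex, members with an unadjusted p under 0.05, a 2-fold difference on both arrays or several probes, isoform sets, and the extremes of each list. Other members are given with their values for completeness. Protein sequences were not used here. The alternatives were no dye term, scale and quantile normalization, a fit per probe, exact zeros as missing, leaving out each array, other member sets, another log base, the fosB-null sign turned and arrays of 1 dye orientation at a time. The dye term coded by the labelled dyes, and the ribosomal list without kinases, were added after seeing the data.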

Additional observations from a re-analysis of the deposited data

Results flagged for a closer look

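Members whose fosBd/d arrays both lay on one side of 0 and whose fosB-null arrays both lay on the other, as deposited, are listed here. The value given is the difference between the deposited means. By the sign marks, the mutants were deposited in opposite directions. In that reading these members lay on the same side of wild type in both mutants, and the deposited value is no difference between mutants. There were 10 with fosBd/d lower (24.4%, beside 6.80% of all genes) and 2 with fosBd/d higher (4.88%, beside 7.90%). By limma no difference passed after adjustment. As deposited, the value was lower in fosBd/d for the complex I genes Ndufc2 (-1.23), Ndufb4 (-0.87), Ndufc1 (-0.56), Ndufv3 (-0.46) and Ndufb11 (-0.45). With the fosB-null sign turned, these differed by -0.19, -0.41, 0.15, -0.10 and -0.08, in that order. In complex IV the deposited value was lower for Cox7c (-0.84) and Cox6c (-0.58), and in the ATP synthase for Atp5k (-0.49). The assembly factors Cox20 (-0.63) and Ndufaf3 (-0.52) were lower too as deposited, and Cox8a (0.50) and Ndufaf7 (0.13) were higher. With the fosB-null sign turned, none of these 12 is on opposite sides, and Ndufa5 and Cox7a1 take their place (4.88%, beside 4.53% of all genes).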

How the results depend on the processing

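The fosBd/d median stayed negative under each alternative run, from -0.22 to -0.05, the last with values read as log2 (-0.0546 in place of -0.18), and 0 members passed after adjustment under any setting in any comparison. The number of members negative on both fosBd/d arrays ran from 18 to 21. The fosB-null median turned negative without fosB-null replicate 2 (range -0.0158 to 0.11 without 1 array). At an unadjusted p under 0.05, the 7 fosBd/d members were 3 without the dye term, 1 with it coded by the labelled dyes (chosen after seeing the data), 3 with quantile normalization and 1 to 2 without 1 array. The 3 fosB-null members were 0 without the dye term, 0 with it coded by the labelled dyes and 0 without any array. The 8 members of the difference were 3 without the dye term, 0 with it coded by the labelled dyes, 3 with the sign turned and 0 to 2 without 1 array. Its median was -0.0812 with values read as log2, -0.0651 with the sign turned and -0.388 to -0.233 without 1 array, and -0.21 and -0.32 between the arrays with the mutant in Cy3 and in Cy5, which carry no test. Fits without an array had no dye term, and a lone array was assumed to vary like the other mutant's. Of 816 values of single members recomputed, 782 moved by no more than the SD of their arrays. Most of these could not move further, since leaving out 1 of 2 arrays or changing the dye term cannot shift a mean by more. The 34 that moved further came from scale normalization (4), quantile normalization (4) and values read as log2 (26). No paired analysis was possible because the labels carry no replicate numbers, and dye orientation does not say which samples share a culture. The cause of these changes was not tested.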

Other observations

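The remaining lists of mitochondrial genes had medians near 0 in fosBd/d, with a few genes far from it on 1 fosBd/d array. Regulators of mitochondrial biogenesis and DNA maintenance had medians of -0.07 in fosBd/d and 0.11 in fosB-null over 9 genes. On both fosBd/d arrays 4 were negative (44.4%, beside 48.8% of the members and 24.2% of all genes). On the other side, 1 was positive on both (11.1%, beside 12.2% and 25%). The fosB-null value is as large as the member median of 0.11, with 4 genes positive and 1 negative on both arrays. The factor Nrf1, which acts on many respiratory chain promoters, read -0.40 and -0.13 in fosBd/d and 0.24 and 0.12 in fosB-null, and Tfam, which packages and transcribes mitochondrial DNA, read -0.02 and -0.17, then -0.35 and 0.19. The coactivator Ppargc1a was the highest of them in fosBd/d, from 0 on replicate 1 and 1.58 on replicate 2, and Ssbp1, which binds single-stranded mitochondrial DNA, the lowest, from 0 and -1.31.

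Protein import and chaperone genes had medians of -0.06 and 0.02 over 11 genes. Tomm40, the outer membrane import pore, read 0.52 and 0.37 in fosBd/d, and Timm44, of the inner membrane import motor, -0.07 and -1.84. Mitochondrial carriers and channels had medians of 0.00 and -0.08 over 7 genes. The adenine nucleotide carriers Slc25a4 and Slc25a5, which exchange ATP for ADP, had fosBd/d means of -0.26 ± 0.17 and 0.08 ± 0.43, and Slc25a10, the dicarboxylate carrier, was the highest at 0.20 ± 0.21. None of these genes passed in limma after adjustment.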
